A study of Drosophila melanogaster with 12 samples.

Results

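PM4 is 1 of the 12 plasmatocyte (PM) clusters of a single-cell RNA-seq survey of *Drosophila melanogaster* larval blood. Its members were the cells that the deposited cell annotation puts in cluster number 5, which the study names PM4 and marks by *Immune induced molecule 18* (*IM18*). There were 1461 such cells among 19458 cells in 11 libraries. The wounded libraries 1 to 4 held 24, 347, 32 and 147 PM4 cells. The wasp inf. 24 hr libraries 1 to 3 held 3, 74 and 457 PM4 cells. The unwounded libraries 1 to 4 held 0, 85, 290 and 2 PM4 cells. Levels and ratios are given for the 8 libraries with at least 10 PM4 cells (wounded 1 to 4, wasp inf. 24 hr 2 and 3, unwounded 2 and 3).

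The 4 wounded libraries came from *Hml>EGFP* larvae wounded by a tungsten needle 96 hr after the eggs were laid (AEL), from which blood was taken 24 hr later. The 3 wasp inf. 24 hr (wasp 24 hr) libraries came from wild type OreR larvae infested by the wasp *Leptopilina boulardi* when 72 hr old, from which blood was taken at an age of 96 hr. The 4 unwounded libraries came from *Hml>EGFP* larvae that were not pierced and were bled at the same time as the wounded ones. In *Hml>EGFP* larvae the *Hml* promoter drives GAL4, which switches on EGFP in plasmatocytes and in part of the other hemocytes. Libraries 1 and 2 of wounded and unwounded were made with 10X Chromium, libraries 3 and 4 with inDrops, and all wasp 24 hr libraries with Drop-seq. The wasp infested larvae were also of another strain and age and their hemocytes did not pass the density gradient used for the others, so a difference from unwounded larvae in level cannot be told apart from these. Hemocytes of many larvae were pooled per library, and p-values measure the spread between such pools.

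Plasmatocytes are the macrophage-like cells of the fly. They engulf bacteria and dying cells through Nimrod and scavenger receptors, secrete basement membrane, and release antimicrobial peptides under the control of the Toll and Imd pathways. When a parasitoid wasp lays its egg, lamellocytes arise in the larva and wrap the egg. *IM18* encodes a short peptide that was found in the hemolymph of immune-challenged flies.

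*IM18* had a UMI in PM4 cells of 3 of the 8 libraries, in wounded 3 in only 2 of 32 cells. Its level was 0, 0, 24.8 and 0 CPM (UMIs scaled to a total of 1000000 for the class in that library) in PM4 of wounded 1 to 4. It was 929 and 832 CPM in PM4 of wasp 24 hr 2 and 3, and 0 CPM in PM4 of both unwounded libraries. In the other plasmatocytes it had 0, 0, 3.61 and 0.814 CPM in the wounded libraries, 404 and 145 CPM in the wasp 24 hr libraries and 0 CPM in both unwounded libraries. *IM18* was thus higher in PM4 than in the sum of the other plasmatocytes within wasp 24 hr 2 and 3, while in unwounded larvae the cluster had no *IM18* UMI at a depth of 1014751 UMIs, which allows up to 2.96 CPM. Outside Drop-seq the cluster is therefore described here by its number and its other genes.

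In wasp 24 hr 2, 55 of 74 PM4 cells (74.3%) had an *IM18* UMI, against 37.1% of other plasmatocytes. In wasp 24 hr 3, 328 of 457 PM4 cells (71.8%) had one, against 16.2% of other plasmatocytes. In crystal cells of the same libraries, taken here as the background of free RNA, 10.4% and 13.3% of cells had a UMI at a median of 4750.5 and 3903 UMIs per cell, close to the 4730 and 4374 UMIs of PM4 cells. With each cell thinned to 1000 UMIs, the shares in PM4 were 52.7% and 42.01%, against 19.3% and 8.50% in other plasmatocytes, and 6.25% and 6.00% in crystal cells. PM4 was not the cluster with the most *IM18*. PM11 had 3060 and 1608 CPM in the same libraries and PM4 came next in both. PM6 had a mean of 1359 CPM over the 3 wasp 24 hr libraries (632 to 2565 CPM), against 880 CPM in PM4 over wasp 24 hr 2 and 3, so *IM18* was not particular to PM4.

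PM4 had a higher sum of plasmatocyte markers than the other plasmatocytes in the wounded and unwounded libraries, and a lower sum in the wasp 24 hr libraries. The markers were *Hml*, *NimC1*, *eater*, *Pxn*, *Col4a1*, *vkg* and *crq*, of which *Col4a1* is listed at 0 in all Drop-seq cells. The sums therefore cover unlike sets across technologies and are compared within a library only. Of these 7 markers the summed level in wasp 24 hr 2 and 3 was 504 and 363 CPM in PM4, against 2371 and 1841 CPM in the other plasmatocytes. Crystal cells of these libraries had 2868 and 2035 CPM, and lamellocytes 1160 and 565 CPM. PM4 was thus below both, so in the wasp 24 hr libraries these markers do not set PM4 apart as plasmatocytes. It was 20794, 25620, 20990 and 22043 CPM in PM4 of wounded 1 to 4, and 29479 and 33962 CPM in PM4 of unwounded 2 and 3. In the other plasmatocytes it was 19166, 22061, 19603 and 20557 CPM in wounded 1 to 4, and 23662 and 33177 CPM in unwounded 2 and 3. The pan-hemocyte markers *He* and *srp* did not show that gap, with a sum of 1652 and 2340 CPM in PM4 of wasp 24 hr 2 and 3 and of 1721 and 2326 CPM in the other plasmatocytes.

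Crystal cell and lamellocyte markers were lower in PM4 than in the cells they define. The summed level of 4 crystal cell markers (*lz*, *PPO1*, *PPO2*, *peb*) ran between 0.917 and 855 CPM in PM4, against 3317 to 164173 CPM in crystal cells. The sum of 4 lamellocyte markers (*atilla*, *PPO3*, *betaTub60D*, *alphaTub85E*) ran between 7.24 and 219 CPM in PM4, against 177 to 14422 CPM in lamellocytes. The fat body markers that the table lists (4 of 5) summed to 587 CPM in the 24 PM4 cells of wounded 1, against 39.1 CPM in the other plasmatocytes of that library, and to at most 99.6 CPM in PM4 of the other libraries. The sum of muscle markers ran between 3.82 and 65.0 CPM in PM4, against 7.92 to 77.2 CPM in the other plasmatocytes. The part of these cells in any result was not tested.

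PM4 made up 1.66%, 3.74% and 11.4% of the cells in wasp 24 hr 1 to 3. In wounded 1 to 4 the share was 1.01%, 16.3%, 1.80% and 5.08%, and in unwounded 1 to 4 it was 0% (which allows up to 0.390%), 10.5%, 14.2% and 0.407%. The exact 95% intervals, which cover counting error only, do not overlap between wounded 2 (14.8 to 17.99%) and wounded 1 (0.648 to 1.498%), nor between unwounded 3 (12.7 to 15.8%) and unwounded 4 (0.0493 to 1.46%). Libraries of 1 condition and 1 technology thus differed more than 10-fold. The mean was 6.06 ± 7.08% in wounded (SD, n = 4) and 6.29 ± 7.18% in unwounded libraries (SD, n = 4). The fraction did not differ between wounded and unwounded libraries beyond this spread (log2 fold change -0.19, SE 1.52, adjusted p = 0.997 over 16 clusters, edgeR's quasi-likelihood test on cell numbers). An exact permutation test of the difference, -0.230 percentage points, gave a two-sided p = 1, where the smallest possible was 0.0286. Both tests take the libraries as unpaired. Within same-numbered pairs the share was higher in the wounded library in 3 of 4, and lower in wounded 3 (1.80%, against 14.2% in unwounded 3). With the replicate block the log2 fold change was 1.31 (SE 1.38, adjusted p = 0.80), so the direction turned with the pairing term. The intervals are wide enough that a change of several fold in either direction was not detectable with these libraries.

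**Figure D1:**
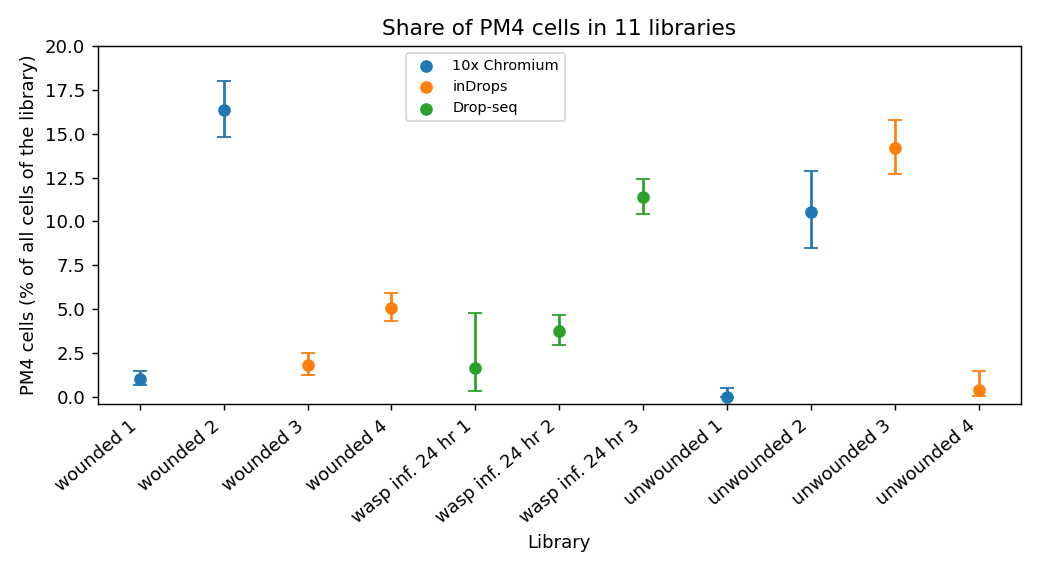
Percent of the cells of each of 11 libraries (x axis) that are PM4 (y axis). Points are libraries coloured by technology and bars are exact 95% intervals. PM4 ranges between 1.01% and 16.3% in wounded, 1.66% and 11.4% in wasp 24 hr, and 0% and 14.2% in unwounded libraries.

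Next, PM4 was set beside the 11 other plasmatocyte clusters of the same library. These clusters were found from the same genes, so what follows is a description without a test. The ratio is log2 of (CPM in PM4 + 5) over (CPM in the other plasmatocytes + 5), and a mean ratio weights the 3 technologies equally. Of 10390 genes with a UMI, 65 (0.626%) were higher in PM4 in all 8 libraries and 301 (2.9%) were lower in all 8. Of the 4095 genes of at least 20 CPM in PM4, 64 (1.56%) were higher and 109 (2.66%) lower in all 8. Of the 65 genes, 36 encode ribosomal proteins and 5 belong to a list of 21 genes of ribosome biogenesis and the nucleolus. Differences were small in most genes, and the mean ratio of the 65 was led by *Ance* and *CG42566*.

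*Ance*, which encodes a secreted peptidase related to mammalian angiotensin converting enzyme, lies at 2L:13905645-13909212 on the plus strand in the Ensembl annotation of the Release 6 assembly. PM4 had 427, 457, 483 and 322 CPM in wounded 1 to 4, 4209 and 4388 CPM in wasp 24 hr 2 and 3, and 539 and 224 CPM in unwounded 2 and 3. Other plasmatocytes were at 316, 325, 218 and 202 CPM in wounded 1 to 4, 2279 and 1104 CPM in wasp 24 hr 2 and 3, and 360 and 163 CPM in unwounded 2 and 3. PM4 was above the other plasmatocytes in each library, by a mean ratio of 0.89 (0.50 in 10X Chromium, 0.75 in inDrops, 1.43 in Drop-seq). Over clusters PM4 had the highest *Ance* level in 3 of 8 libraries and the highest or next level in 6, and in the wasp 24 hr libraries PM11 and PM6 stood above it.

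*CG42566* followed the same order. PM4 had 231, 351, 359 and 709 CPM in wounded 1 to 4, 1833 and 2463 CPM in wasp 24 hr 2 and 3, and 601 and 400 CPM in unwounded 2 and 3. The other plasmatocytes had 156, 295, 215 and 539 CPM in wounded 1 to 4, 941 and 728 CPM in wasp 24 hr 2 and 3, and 352 and 251 CPM in unwounded 2 and 3. The mean ratio was 0.82, and PM4 held the highest or next level among clusters in 7 of 8 libraries.

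Several of the genes that came next act on RNA and the ribosome. *Nop60B* encodes the pseudouridine synthase of box H/ACA particles (the fly dyskerin), and *hoip* a protein of box C/D particles. *Nop60B* was at 338, 238, 260 and 186 CPM in PM4 of wounded 1 to 4, 415 and 500 CPM in PM4 of wasp 24 hr 2 and 3, and 222 and 129 CPM in PM4 of unwounded 2 and 3. In the other plasmatocytes it was at 228, 187, 111 and 171 CPM, at 287 and 289 CPM, and at 196 and 111 CPM in the same libraries. The smallest ratio was 0.12 in wounded 4 and the largest 1.19 in wounded 3, which holds 32 PM4 cells. *hoip* had a mean ratio of 0.47, the snoRNA host gene *Uhg5* of 0.41 and the nucleolar protein gene *mod* of 0.40. Among clusters PM4 had the highest level of *Nop60B* in 4 of 8 libraries, of *hoip* in 3, of *Uhg5* in 2 and of *mod* in 1. In wasp 24 hr 2 *hoip* was at 513 CPM in PM5 and 446 CPM in PM2, against 424 CPM in PM4. These genes were thus not particular to PM4.

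Further genes among the 15 with the highest mean ratio were *trol* (0.47), which encodes the basement membrane proteoglycan perlecan, *CG16753* (0.45), *CG9547* (0.39), *l(2)34Fd* (0.37), the deoxyribonucleoside kinase gene *dnk* (0.34), *CG5728* (0.33), the mitochondrial import gene *ttm50* (0.32) and *srl* (0.29), the fly PGC-1 homolog that promotes mitochondrial genes. In cells thinned to 1000 UMIs the ratio of *CG5728* turned to -0.32. Among clusters PM4 was highest in 4 of 8 libraries for *CG16753*, in 3 for *CG9547* and in 2 for *trol* and *l(2)34Fd*. It was highest in 1 for *ttm50* and *srl* and in 0 for *dnk* and *CG5728*. PM4 of wounded 1 and 3 held 56265 and 80706 UMIs in all. Levels there such as 35.5 and 12.4 CPM of *l(2)34Fd* thus rest on a few UMIs.

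Genes low in PM4 differed by more. *CG15784* had 0, 19.6, 86.7 and 76.9 CPM in PM4 of wounded 1 to 4, 45.8 and 35.3 CPM in PM4 of wasp 24 hr 2 and 3, and 26.8 and 94.3 CPM in PM4 of unwounded 2 and 3. In the other plasmatocytes it had 230, 174, 280 and 127 CPM in wounded 1 to 4, 190 and 346 CPM in wasp 24 hr 2 and 3, and 255 and 387 CPM in unwounded 2 and 3. PM4 was below them in each library, and the values of PM4 (at most 94.3 CPM) lay below all those of the other plasmatocytes (at least 127 CPM), with a mean ratio of -2.59. *NimC1*, the Nimrod receptor by which plasmatocytes take up bacteria, had 71.1, 109, 12.4 and 50.3 CPM in PM4 of wounded 1 to 4, 9.65 and 11.9 CPM in PM4 of wasp 24 hr 2 and 3, and 49.7 and 70.4 CPM in PM4 of unwounded 2 and 3. Other plasmatocytes were at 133, 114, 98.9 and 65.9 CPM, 126 and 131 CPM, and 119 and 83.8 CPM in the same libraries. In wounded 2 both values are alike, and in the wasp 24 hr libraries PM4 was far lower.

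Others of the 10 lowest genes were *lncRNA:CR44430* (mean ratio -2.24), the C-type lectin gene *lectin-24A* (-2.12), *CG43175* (-1.99), the antifungal peptide gene *Drs* (-1.98), the actin nucleator gene *spir* (-1.90), the G protein gamma subunit gene *Ggamma30A* (-1.78), *CG8478* (-1.55) and the lamellocyte marker *atilla* (-1.47).

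Some genes were found in PM4 of the wasp 24 hr libraries and little in PM4 of the others. Among genes under 5 CPM in PM4 of every other library, the largest Drop-seq ratios after *IM18* were those of *CG13160*, *Vago*, *mthl13*, *CG2233* and *kn*. *CG13160* had 116 and 114 CPM in PM4 of wasp 24 hr 2 and 3, against 48.8 and 15.2 CPM in the other plasmatocytes. *Vago*, a secreted antiviral protein gene, had 36.2 and 51.8 CPM in PM4, against 20.4 and 4.69 CPM. *kn*, which encodes the transcription factor Collier of the posterior signaling center of the lymph gland (the larval blood-forming organ) that is also needed for lamellocytes, had 43.4 and 27.5 CPM in PM4, against 8.41 and 10.0 CPM. *mthl13* had 31.4 and 20.2 CPM in PM4, against 10.3 and 2.18 CPM. *CG2233* had 48.2 CPM in PM4 of wasp 24 hr 2 and 0 CPM in that of wasp 24 hr 3, against 1.26 and 0.168 CPM, so that 1 library carries its value. Several of these genes were higher in another cluster. PM6 had 120 and 124 CPM of *CG13160* in wasp 24 hr 2 and 3. *Vago* was at 54.4 CPM in PM7 and 43.5 CPM in PM6 of wasp 24 hr 2, and at 82.9 CPM in PM6 of wasp 24 hr 3. *mthl13* was at 31.1 CPM in PM6 of wasp 24 hr 3. PM11 had 793 and 979 CPM of *kn*, far above PM4. With each other cluster weighted equally the mean ratio of *kn* over technologies was -0.56, against 0.44 when their cells were summed.

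**Figure D2:**
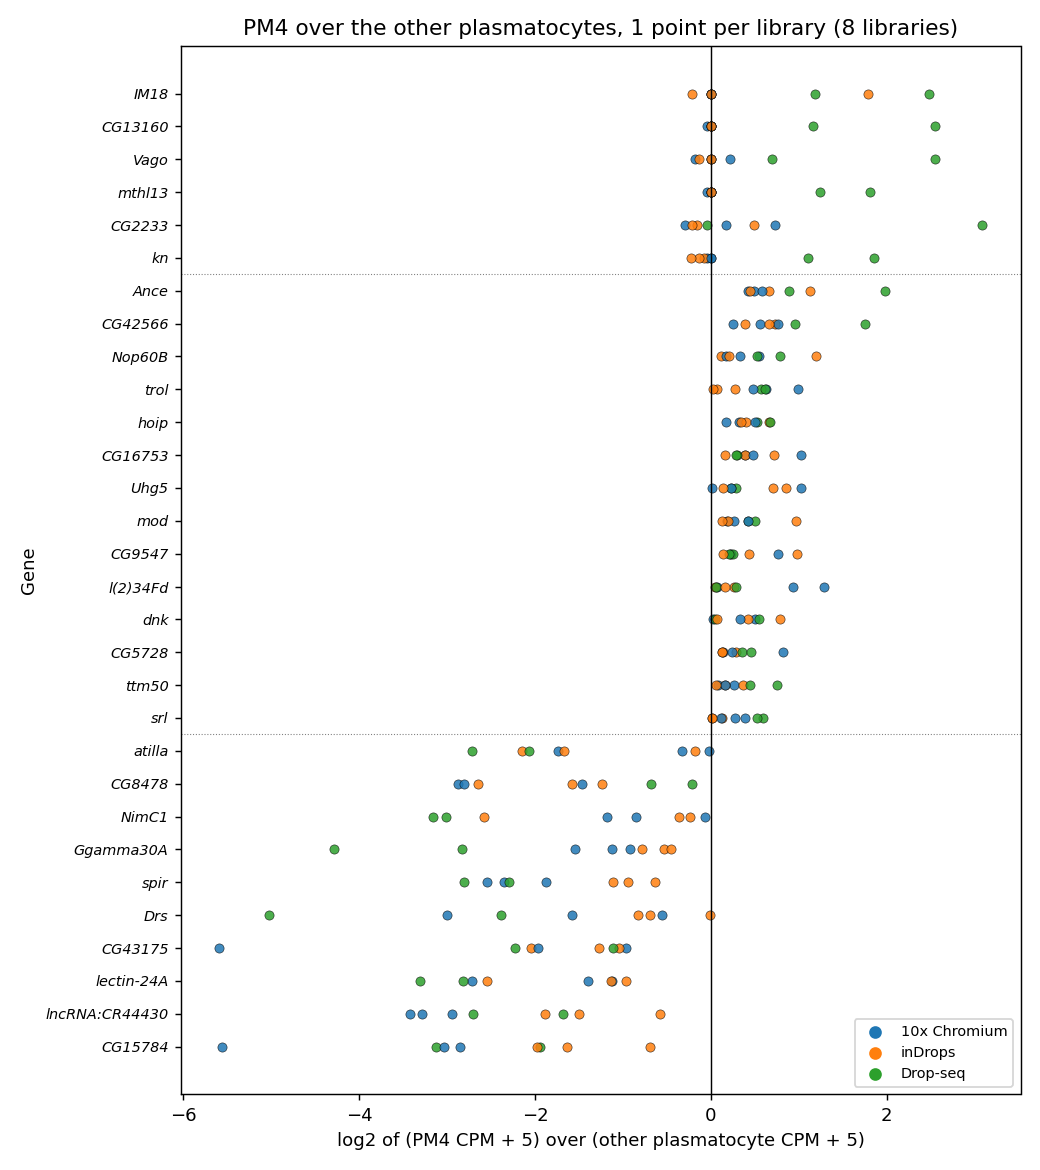
log2 ratio of PM4 over the other plasmatocytes (x axis) for *IM18* and the genes high in Drop-seq alone (top), 14 of the 15 genes with the highest (middle) and the 10 with the lowest mean ratio (bottom). Each point is 1 of 8 libraries coloured by technology. *Ance* and *CG42566* lie right of 0 in all 8 libraries, *CG15784* left of 0 in all 8.

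By function, the list of ribosome biogenesis genes had a mean ratio above 0 in 21 of 21 genes, beside 36.4% of the 4095 genes of at least 20 CPM in PM4 and 24.9% of all genes. The list was written with the study's account of PM4 known and the clusters were found from the same genes, so this count restates that choice and nothing is read from it. The median ratio of its members ran between 0.51 and 0.57 in the wasp 24 hr libraries and between 0.088 and 0.39 in the 10X Chromium and inDrops libraries. *Nop60B*, *hoip*, *mod* and *Nlp* were among the 5 that were higher in all 8 libraries. *Nlp*, which encodes a histone-binding nucleoplasmin, had 391, 451, 570 and 378 CPM in PM4 of wounded 1 to 4, 1102 and 1076 CPM in PM4 of wasp 24 hr 2 and 3, and 379 and 466 CPM in PM4 of unwounded 2 and 3. The other plasmatocytes were at 379, 404, 570 and 347 CPM, 828 and 836 CPM, and 375 and 429 CPM, so that outside Drop-seq the gap was small. Ribosomal protein genes had a mean ratio above 0 in 81 of 86, with a median of 0.10, and 36 were higher in all 8 libraries.

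Genes of mitochondria and energy transfer had a mean ratio above 0 in 8 of 16, beside 24.9% of all genes and 36.4% of those of at least 20 CPM in PM4. *sesB* (ADP/ATP carrier), *awd* (nucleoside diphosphate kinase), *blw* (ATP synthase alpha subunit) and *porin* were higher in PM4 in all 8 libraries. *sesB* had 1386, 1232, 1090 and 721 CPM in PM4 of wounded 1 to 4, 5564 and 6330 CPM in PM4 of wasp 24 hr 2 and 3, and 1216 and 889 CPM in PM4 of unwounded 2 and 3. The other plasmatocytes had 1242, 1173, 827 and 599 CPM, 4537 and 5298 CPM, and 1121 and 808 CPM. The median cell had 2822 UMIs in PM4 and 3781 in the other plasmatocytes of wounded 2, and 4374 against 3358 in wasp 24 hr 3, and the part of depth in these ratios was tested only by thinning.

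Basement membrane and phagocytosis genes were where PM4 of the wasp 24 hr libraries parted from PM4 of the others. The median ratio of 11 genes of extracellular matrix and clotting was -1.61 and -1.96 in wasp 24 hr 2 and 3, against 0.054 to 0.25 in the 6 10X Chromium and inDrops libraries. *Hml* (hemolectin, a clotting factor) had 376 and 270 CPM in PM4 of wasp 24 hr 2 and 3, against 1368 and 1065 CPM in the other plasmatocytes. In the wounded libraries *Hml* had 9118, 10145, 3829 and 5158 CPM in PM4, against 8128, 8543, 3511 and 4814 CPM, and in the unwounded libraries 11257 and 5388 CPM, against 8592 and 5596 CPM. The type IV collagen gene *vkg* had 41.0 and 10.998 CPM in PM4 of wasp 24 hr 2 and 3, against 379 and 186 CPM. The peroxidasin gene *Pxn* had 41.0 and 21.5 CPM, against 325 and 292 CPM. The papilin gene *Ppn* had 200 and 169 CPM, against 674 and 711 CPM. *Mmp1* and *Mmp2*, which encode the matrix metalloproteinases, were lower in PM4 in all 8 libraries. *Mmp1* had 716 and 145 CPM in PM4 of wasp 24 hr 2 and 3, against 1797 and 303 CPM in the other plasmatocytes. These include PM3 and PM5, which the study groups with PM4 by immune-induced genes such as *Mmp1*. No ratio without PM3 and PM5 is given here. *Col4a1* and *SPARC* are listed at 0 in all Drop-seq cells and say nothing there.

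Likewise the median ratio of 11 phagocytosis receptor genes was -1.19 and -1.32 in wasp 24 hr 2 and 3, against -0.10 to 0.16 in the 10X Chromium and inDrops libraries. The scavenger receptor gene *Sr-CI* had 14.5 and 26.6 CPM in PM4 of wasp 24 hr 2 and 3, against 344 and 302 CPM in the other plasmatocytes. In wounded 1 to 4 *Sr-CI* had 1760, 2337, 1487 and 2273 CPM in PM4, against 1889, 2133, 1533 and 2110 CPM. *eater*, another Nimrod receptor gene, had 31.4 and 44.5 CPM in PM4 of wasp 24 hr 2 and 3, against 158 and 154 CPM. *NimB1* did not show the split, with 292 and 345 CPM in PM4 and 344 and 305 CPM in the other plasmatocytes of the wasp 24 hr libraries. These are ratios within a library, but wasp infestation, technology and strain cannot be told apart between the libraries.

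**Figure D3:**
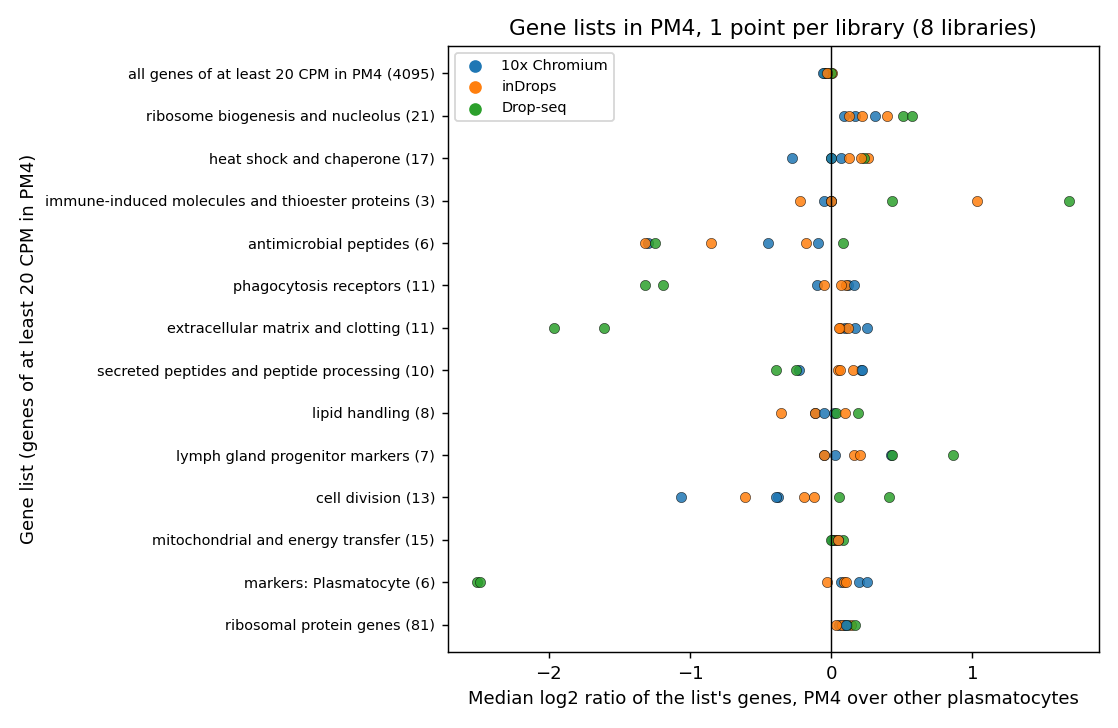
Median log2 ratio of PM4 over the other plasmatocytes (x axis) for each gene list (y axis, with the number of genes of at least 20 CPM in PM4). Each point is 1 of 8 libraries coloured by technology. Ribosome biogenesis lies at 0.088 to 0.57. Extracellular matrix and clotting genes lie at -1.61 and -1.96 in wasp 24 hr 2 and 3 (Drop-seq) and at 0.054 to 0.25 in the others.

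Antimicrobial peptide genes were low in PM4 relative to the other plasmatocytes, with a mean ratio above 0 in 0 of 12 genes and a median of -0.90. Over all genes the mean ratio was above 0 in 24.9%, and in 36.4% of those of at least 20 CPM in PM4. The library with the most PM4 cells, wasp 24 hr 3, did not share this, with 3 of 6 genes of at least 20 CPM higher and a median of 0.087, against -1.25 in wasp 24 hr 2 and -1.32 to -0.090 in the wounded and unwounded libraries. The other plasmatocytes include PM6 and PM7, which the study marks by genes of this list, and no ratio without them is given here. The low ratios are thus relative to a sum that holds these clusters. *Drs* and *Mtk* (metchnikowin) were lower in all 8 libraries, *Drs* in wounded 4 by a ratio of -0.01 only. *Dro* (drosocin) had 193 and 140 CPM in PM4 of wasp 24 hr 2 and 3, against 396 and 114 CPM, so the order differed between these libraries. Among immune-induced molecules and thioester proteins, 3 of 8 genes had a mean ratio above 0, beside the same shares of all genes. *Tep4* had 462, 347, 409 and 334 CPM in PM4 of wounded 1 to 4, 1606 and 1862 CPM in PM4 of wasp 24 hr 2 and 3, and 371 and 198 CPM in PM4 of unwounded 2 and 3. In the other plasmatocytes it had 405, 359, 197 and 222 CPM, 1188 and 577 CPM, and 364 and 166 CPM, so PM4 was above them in 7 of 8 libraries. *Tep1* was lower in PM4 in all 8 libraries, with 376 and 591 CPM in PM4 of wasp 24 hr 2 and 3, against 972 and 1773 CPM in the other plasmatocytes.

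*Tep4* and *Ance* are also known as markers of progenitors in the lymph gland. Of 9 such markers, 5 had a mean ratio above 0, beside 24.9% of all genes and 36.4% of those of at least 20 CPM in PM4. *Lip4*, a lipase gene of this list, was at most 1.33 CPM in PM4 of the wounded and unwounded libraries and had 270 and 315 CPM in PM4 of wasp 24 hr 2 and 3, against 136 and 92.3 CPM in the other plasmatocytes. PM11 (542 to 567 CPM) and PM6 (304 to 383 CPM) had means of *Lip4* in Drop-seq above that of PM4. *ham*, a zinc finger gene, had 162 and 375 CPM in PM4, against 94.1 and 204 CPM. *dome* and *shg*, further progenitor markers, were at most 12.4 CPM in PM4 of each library, and *CG30090* was lower in PM4 with 89.2 and 118 CPM, against 266 and 451 CPM, in the wasp 24 hr libraries. Of the secreted peptides, *Lst* (limostatin, a peptide that represses insulin release) had 121 and 273 CPM in PM4 of wasp 24 hr 2 and 3, against 81.7 and 48.3 CPM in the other plasmatocytes. It was higher than in PM4 in PM7 (201 CPM) and PM6 (170 CPM) of wasp 24 hr 2 and in PM6 (476 CPM) of wasp 24 hr 3.

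The median ratio of 13 cell division genes was 0.41 and 0.054 in wasp 24 hr 2 and 3, against -1.06 to -0.12 in the 10X Chromium and inDrops libraries. *polo*, a mitotic kinase gene, had 35.5, 35.3, 124 and 101 CPM in PM4 of wounded 1 to 4, and 19.1 and 50.4 CPM in PM4 of unwounded 2 and 3. The other plasmatocytes of these libraries had 85.3, 94.3, 201, 196, 89.4 and 142 CPM. They include PM2, which the study marks by cell cycle genes such as *polo*, and no ratio without PM2 is given here. The ratios of cell division genes are thus relative to a sum that holds PM2. Heat shock and chaperone genes had a mean ratio above 0 in 13 of 19, beside 24.9% of all genes and 36.4% of those of at least 20 CPM in PM4. *Hsp27*, a small heat shock protein gene, was higher in PM4 in all but unwounded 2, with 338, 386, 359 and 62.1 CPM in PM4 of wounded 1 to 4, against 223, 284, 236 and 35.5 CPM. Lipid handling genes had a mean ratio above 0 in 5 of 13, near the share of genes of at least 20 CPM, and nothing is read from this count.

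The *EGFP* transcript of the *Hml>EGFP* larvae is not in the merged table that carries the clusters, and was read from the inDrops counts. In inDrops, *EGFP* had 3629 and 2476 CPM in PM4 of wounded 3 and 4, against 3676 and 2507 CPM in the other plasmatocytes. In unwounded 3 it had 3127 CPM in PM4, against 3303 CPM in the other plasmatocytes. The log2 ratios were -0.02, -0.02 and -0.08, so PM4 was close to the other plasmatocytes in the *Hml*-driven transgene in these 3 libraries. An *EGFP* UMI was found in 90.6%, 93.2% and 97.2% of PM4 cells, against 96.0%, 95.3% and 96.9% of other plasmatocytes. *gal4* had 0, 3 and 6 UMIs in PM4, too few to compare.

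The next question was which genes changed with wounding within PM4. UMIs were summed over the PM4 cells of each library and tested with edgeR's quasi-likelihood test, with technology as a covariate. Same-numbered libraries were not paired in this main test. Of 4451 genes, 6 (0.135%) passed an adjusted p of 0.05, 3 higher and 3 lower (0.0674% each), and 2 remained once genes whose symbols differ between the inDrops tables were left out, namely *Drs* and *CG43175*.

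*Drs*, which encodes the antifungal peptide drosomycin at 3L:3369556-3369942 on the plus strand, had 160, 502, 731 and 1620 CPM in PM4 of wounded 1 to 4, against 0 and 5.31 CPM in PM4 of unwounded 2 and 3. The groups do not overlap, and *Drs* was higher in wounded PM4 cells in 4 of 4 libraries. Its log2 fold change was 7.85 (SE 0.74, adjusted p = 4e-05). This value depends on a prior count since unwounded 2 has no UMI. The other plasmatocytes of the same libraries had 1319, 741, 1185 and 1628 CPM in wounded 1 to 4, against 9.97 and 13.2 CPM in unwounded 2 and 3. *Drs* kept its call in each of the 18 alternatives that gave a value. In 4 of these (10X Chromium only, inDrops only, without unwounded 2 and without unwounded 3) the unwounded side is 1 library, which is assumed to vary like the others. In PM4 of wasp 24 hr 2 and 3 it had 0 and 0.458 CPM.

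*CG43175* had 0, 70.7, 99.1 and 148 CPM in PM4 of wounded 1 to 4, against 0 and 9.29 CPM in PM4 of unwounded 2 and 3. Wounded 1, with 24 PM4 cells, is at 0, so the groups overlap. The log2 fold change was 3.98 (SE 0.72, adjusted p = 0.037). The call was lost with DESeq2 (adjusted p = 0.26), in thinned cells, in 10X Chromium alone and without wounded 2, wounded 4 or unwounded 3 (adjusted p = 0.058 to 1). Other plasmatocytes were at 236, 142, 425 and 310 CPM in the wounded libraries, against 14.5 and 29.5 CPM in the unwounded ones.

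The other 4 calls, *CG6218* (up) and 3 genes whose symbols start with Dyak- (down), follow the names of the tables. In the plasmatocytes of unwounded 3 the deposited inDrops counts hold 573 UMIs of *CG6218* under its FlyBase identifier, while the merged table lists 0 under that symbol. The same library holds 4316 UMIs of *Fkbp12*, 711 of *Fkbp59* and 920 of *Scsalpha1* under their identifiers, and the merged table lists 0 under these symbols. There were 21 genes without a UMI in plasmatocytes of 1 inDrops condition that had at least 20 in the other (17 missing in unwounded, 4 in wounded). Of these, only the genes named here were looked up by identifier. Leaving out all 21 could also remove a gene that changed with wounding.

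Of the antimicrobial peptide genes, 7 could be tested in PM4 and 1 rose with wounding, *Drs*. *Mtk* had 267, 206, 1140 and 2155 CPM in PM4 of wounded 1 to 4, against 95.6 and 83.6 CPM in PM4 of unwounded 2 and 3. The groups do not overlap, as in 4.72% of genes higher and 2.18% lower, and the change did not pass the test (log2 fold change 2.85, SE 0.60, adjusted p = 0.12). The median log2 fold change over the 7 genes was 2.85, against -0.03 over all genes tested. No gene of the other 10 lists passed the test in either direction, with medians between -0.66 (heat shock and chaperone, 18 tested) and 1.75 (immune-induced and thioester, 4 tested). *Ance* had a log2 fold change of 0.11 (SE 0.26, adjusted p = 0.99), *Nop60B* of 0.38 (SE 0.27, adjusted p = 0.93) and *Tep4* of 0.34 (SE 0.26, adjusted p = 0.95). The crystal cell genes *PPO2* (1.49, SE 0.36, adjusted p = 0.27) and *PPO1* (1.00, SE 0.55, adjusted p = 0.92) did not pass either, and the summed crystal cell markers were 284, 530, 855 and 275 CPM in PM4 of wounded 1 to 4, against 103 and 240 CPM in PM4 of unwounded 2 and 3. Their part in the result was not tested.

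With the replicate number as a block, which leaves only the pairs wounded 2 and unwounded 2 and wounded 3 and unwounded 3 informative, 19 genes passed (5 higher, 14 lower), among them *Drs*, *CG43175* and *Mtk* and the 3 Dyak- genes that follow the names of the tables. Without unwounded 3 it was 1 gene (*Drs*), and without unwounded 2 it was 22. In simulated data of the same depth the test found 71 of 100 genes changed by 4-fold and 17 of 100 changed by 2-fold, so most changes of 2-fold would have been missed. The same simulation gave 9 calls among the genes that were not changed.

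**Figure D4:**
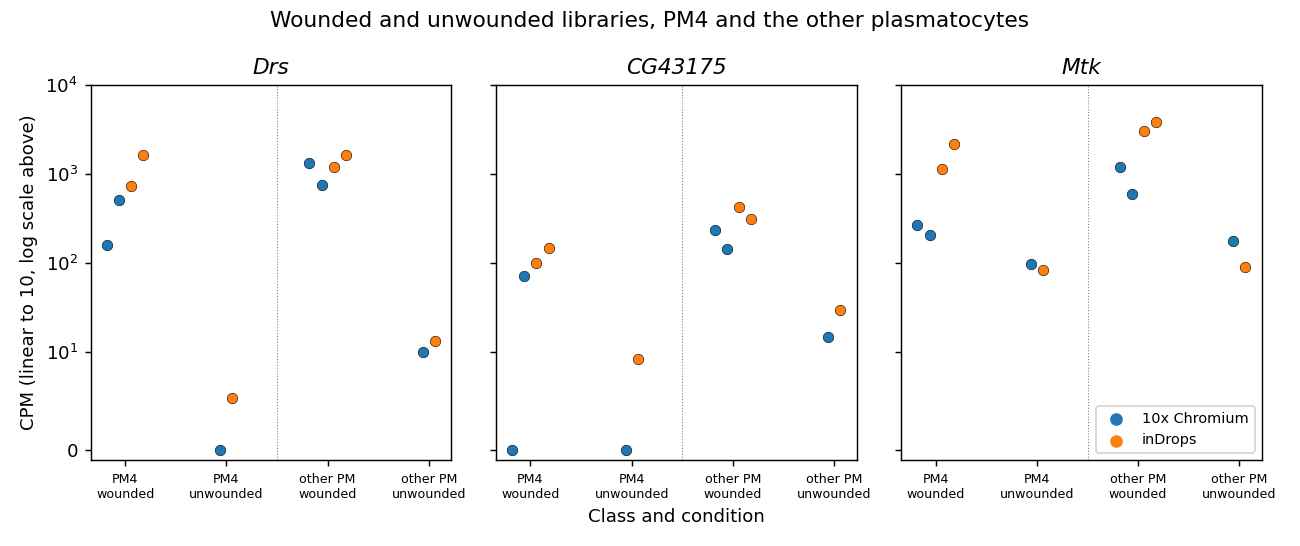
CPM (y axis, linear up to 10 and logarithmic above) of *Drs*, *CG43175* and *Mtk* in PM4 and in the other plasmatocytes (PM) of wounded and unwounded libraries (x axis). Each point is a library coloured by technology. *Drs* lies at 160 to 1620 CPM in PM4 of wounded and at 0 and 5.31 CPM in PM4 of unwounded libraries.

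Whether wounding changed genes in PM4 by another amount than in the other plasmatocytes was tested by the interaction of class and condition in 1 model over both classes. Of 8301 genes, 2 (0.0241%) passed, the rRNA pseudogenes *18SrRNA-Psi:CR45861* (-1.53, SE 0.32, adjusted p = 0.014) and *18SrRNA-Psi:CR41602* (-1.37, SE 0.30, adjusted p = 0.014). The difference did not overlap between wounded and unwounded libraries in 4.06% of genes higher and 4.79% lower. Reads of near-identical rRNA copies cannot be assigned with certainty, and both calls were lost with DESeq2, in thinned cells, without a filter on low counts and without wounded 4 or unwounded 3. None of the 11 gene lists had a called member. For *Drs* the effect of wounding was not shown to differ between PM4 and the other plasmatocytes (1.12, SE 0.70, adjusted p = 1). *Mtk* had an interaction of -1.04 (SE 0.26, adjusted p = 0.14), and *Ance* of 0.01 (SE 0.22, adjusted p = 1).

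PM4 of wasp 24 hr larvae differed from PM4 of unwounded larvae in 1711 of 4154 genes (41.2%), 854 higher and 857 lower (20.6% each). The libraries did not overlap in 34% of genes higher and in 30.6% of genes lower. Only genes with a UMI in Drop-seq and in another technology were tested. Since the wasp 24 hr libraries also differ in technology, strain, age, isolation and annotation, these calls cannot be told apart from such differences. *IM18* had at least a 281-fold higher level in wasp 24 hr PM4 cells, computed from the lower of both libraries against 3 UMIs over the unwounded PM4 cells. Its call (adjusted p = 2e-07) was lost with DESeq2 (adjusted p = 0.12) and without unwounded 3 (log2 fold change 9.77, adjusted p = 1), where the unwounded side is 1 library at 0 UMIs. This fold change depends on a prior count.

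Among the 10 genes with the largest called change upward, *CG6023* had 338 and 202 CPM in PM4 of wasp 24 hr 2 and 3, against 0 CPM in PM4 of unwounded 2 and 3 (at least 68.2-fold higher). *GILT3*, of a thiol reductase family, had 205 and 250 CPM, against 0 CPM (at least 69.3-fold higher). The other plasmatocytes had 176 and 220 CPM of *GILT3* in wasp 24 hr 2 and 3, against 0.322 and 0.651 CPM in unwounded 2 and 3. They were higher in the wasp 24 hr libraries in each gene named in this paragraph. *CG15550*, *CG13160*, *Ance-2*, *CG11236* and *CG33461* were at 0 in PM4 of both unwounded libraries as well. All of these genes could thus only come out as higher. *CG6023*, *GILT3*, *CG13160*, *CG11236* and *CG33461* had 0 CPM in PM4 of the wounded libraries too. They passed the filter on low counts through the wasp 24 hr libraries. *CG15550* and *CG33461* were higher in the other plasmatocytes than in PM4 in wasp 24 hr 2 and 3. The cecropin genes *CecA1* and *CecA2* also rose, and remain uncertain because of their near-identical copies. The calls of *CG6023* and *GILT3* were lost without unwounded 2 or unwounded 3.

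Downward, *Ubx*, a homeotic gene, had 0 and 0.458 CPM in PM4 of wasp 24 hr 2 and 3, against 10565 and 15529 CPM in PM4 of unwounded 2 and 3. The other plasmatocytes of wasp 24 hr 2 and 3 had 0.193 and 0.754 CPM, so they shared the gap in *Ubx*. *CG8501* had 4.82 and 2.75 CPM in PM4 of wasp 24 hr 2 and 3, against 3098 and 3011 CPM in PM4 of unwounded 2 and 3. *lectin-28C* had 0 and 0.458 CPM, against 2069 and 735 CPM. *fat-spondin* had 0 CPM in both, against 1216 and 834 CPM (at least 722-fold lower). *CG3961*, *CG5397*, *NimB3*, *Gal*, *CG17839* and *CG10877* fell as well. The other plasmatocytes were lower in the wasp 24 hr libraries in each of these genes too. Their *CG8501* was at 78.1 and 86.4 CPM in wasp 24 hr 2 and 3, against 3219 and 3048 CPM in unwounded 2 and 3. These drops were thus not particular to PM4. Genes at 0 CPM in PM4 of both wasp 24 hr libraries could only come out as lower.

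Of all genes tested, 20.6% were called in each direction. By list, ribosome biogenesis genes were higher in 15 of 21 tested and lower in none, with a median log2 fold change of 1.32, against 0.06 over all genes tested. That list was written with the study's account of PM4 known, so nothing is read from its count. *Nph* had 813 and 848 CPM in PM4 of wasp 24 hr 2 and 3, against 153 and 181 CPM in PM4 of unwounded 2 and 3 (log2 fold change 2.28, SE 0.32, adjusted p = 5e-05). Ribosomal protein genes rose in 42 of 81. Immune-induced and thioester genes rose in 4 of 4 tested, of 18 listed, with *Tep1* at 3.82 (SE 0.36) and *Tep4* at 2.63 (SE 0.29). *IM18* is among them. Like *Lip4* of the progenitor markers, it passed the filter on low counts through the wasp 24 hr libraries and could only come out as higher. *Ance* rose by 3.56 (SE 0.31, adjusted p = 3.7e-07) and *Lst* by 5.54 (SE 0.62, adjusted p = 6.3e-06). Progenitor markers rose in 5 of 7 and fell in 1, and mitochondrial genes rose in 8 of 12 and fell in 1.

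Beside 20.6% of all genes tested in each direction, extracellular matrix genes fell in 8 of 9, and 1 rose, *Mmp1* (3.71, SE 0.63, adjusted p = 2.7e-04). Phagocytosis receptors fell in 9 of 12 and rose in 2, *NimB1* (1.40, SE 0.31) and *Sr-CIII* (3.19, SE 0.49). Heat shock and chaperone genes fell in 11 of 15 and rose in 2, and lipid handling genes fell in 6 of 8 while *Lip4* rose. Antimicrobial peptide genes rose in 5 of 7, among them *Dro* (6.95, SE 0.70), while *Mtk* fell (-7.25). *CecA1* and *CecA2* are also among those that rose. They had 0 CPM in PM4 of both unwounded libraries, so they, like *Lip4*, could only come out as higher. Secreted peptide genes rose in 3 and fell in 4 of 11, and cell division genes rose in 2 and fell in 4 of 14, beside 20.6% of all genes tested in each direction, and nothing is read from these mixed counts.

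At 48 hr after wasp infestation, 3 Drop-seq libraries of OreR larvae were deposited without clusters, so PM4 itself is not marked in them. They offer cells that the clustering did not use, in which the company of *IM18* can be described. Of 7035 cells kept, 143 (2.03%) had an *IM18* UMI. The class rests on a single UMI in most of them, with 59 cells holding at least 2, and no share of free RNA was measured at 48 hr. By the suffix of the barcode these were 49 of 1867, 32 of 2055 and 62 of 3113 cells. *Ance* had 1381 CPM in cells with an *IM18* UMI, against 279 CPM in cells without one. *CG42566* had 1017 CPM, against 168 CPM, and *Nop60B* 437 CPM, against 99.4 CPM.

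Of the 15 leading genes of PM4, 14 were higher in the cells with *IM18* and 13 were so in each suffix, with a median log2 ratio of 1.49. Over the 4035 genes of at least 20 CPM, 53.4% were higher and the median was 0.05. *trol* was the exception with 19.7 CPM, against 27.7 CPM, and it had a ratio of 0.06 when cells with at least 2 *IM18* UMIs were taken. Of genes low in PM4, *NimC1* had 64.3 CPM in cells with *IM18*, against 291 CPM in cells without. *Ggamma30A* had 450 CPM, against 2013.5 CPM, and *atilla* 1637 CPM, against 6242 CPM. *CG15784*, *Drs* and *CG8478*, which were low in PM4 at 24 hr, were higher in cells with *IM18* at 48 hr, and *Drs* turned with the suffix (0.61, 2.77 and -3.59). Cells with an *IM18* UMI were deeper (a median of 7891 UMIs, against 6856), and the cells without were not separated by type. The study reports that most cells of this time point were *atilla*-positive lamellocytes, so the cells without *IM18* hold many of them. The makeup of both groups by cell type may thus differ, as the level of *atilla* does, and its part in these ratios was not tested. In cells thinned to 1000 UMIs the ratios of *l(2)34Fd* and *dnk* turned to -1.67 and -1.20.

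**Figure D5:**
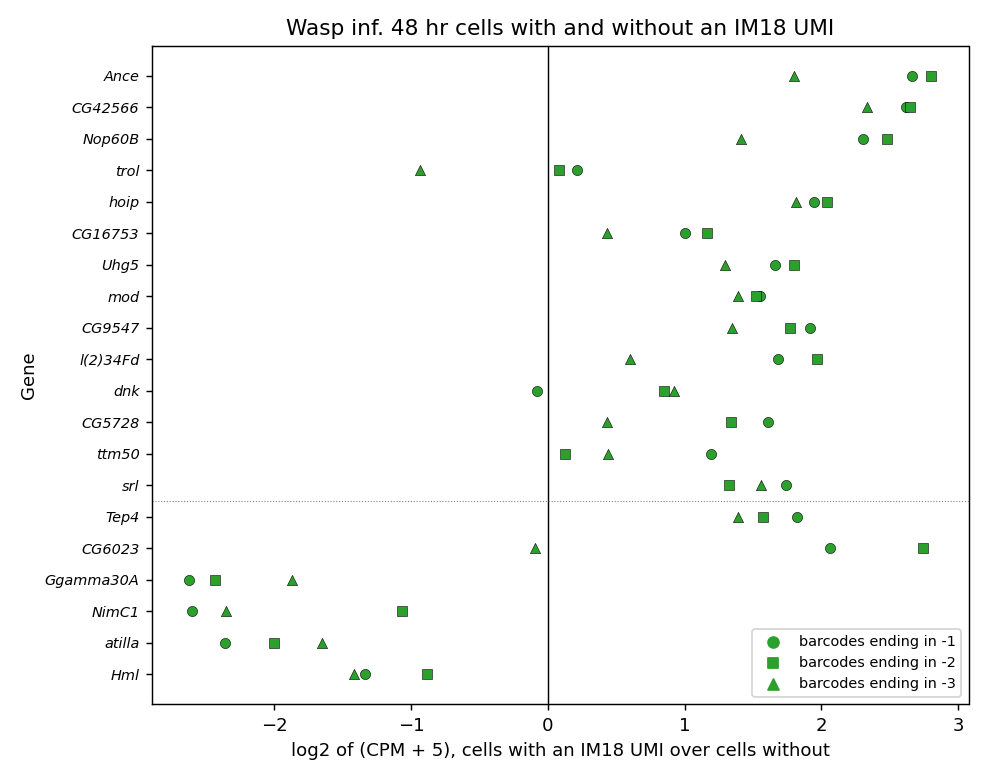
log2 ratio of CPM + 5 in wasp 48 hr cells with an *IM18* UMI over cells without (x axis) for 14 of the 15 leading genes of PM4 (above the dotted line) and 6 further genes. Each point is 1 barcode suffix. *CG42566* lies at 2.33 to 2.64, and *NimC1* at -2.60 to -1.07.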

How the data were processed

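The deposited values were UMI counts, whole numbers that the authors had not normalized. Per the study's methods, 10X Chromium counts came from Cell Ranger (3.1.0 in the submitters' processing notes, another version in the methods), those of inDrops from RapMap and umis within bcbio-nextgen, and Drop-seq counts from Drop-seq tools and STAR with an older annotation. The authors merged 11 libraries after Harmony integration into a table of 10392 genes and deposited the cluster of each cell. The PM4 number came from the study's source data. The members and gene lists were chosen with earlier results of these data known.

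UMI counts were summed per library over PM4 and over the 11 other plasmatocyte clusters, in libraries with at least 10 PM4 cells. PM4 sums ran between 56265 and 2182160 UMIs, and library totals between 623998 and 17452765 UMIs. edgeR 4.0.16 (R 4.3.3) used TMM, filterByExpr and Benjamini-Hochberg adjustment, with calls at an adjusted p under 0.05. The test was checked on simulated data. All p-values are two-sided. The SE of a log2 fold change was derived from its test statistic. DESeq2 1.42.0, upper quartile scaling, no filter, a minimum of 50 cells, thinning to 1000 UMIs, a replicate block, subsets of libraries and leaving out each library were alternatives. Leaving out genes listed in only 1 inDrops condition was added after seeing the data.

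The text names *IM18*, the 15 highest and 10 lowest mean ratios among genes higher or lower in each library, the 5 highest Drop-seq ratios among genes under 5 CPM elsewhere, up to 10 called genes per direction and comparison whose libraries do not overlap, and members of the lists. Of the 15 highest, 1 gene is not reported here. *CG43175* and the Dyak- genes were named although their libraries overlap, after their values were seen.

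Same-numbered wounded and unwounded libraries deviated together over 4328 genes of the plasmatocytes (r = 0.713 in 10X Chromium, 0.550 in inDrops). The labels state that inDrops pairs were multiplexed. The numbers were therefore taken to pair the libraries in the replicate block, which was an alternative. The main tests of the PM4 fraction and of genes changed with wounding used technology alone and left the pairing out. Cell barcodes were shared with another library by 18 of 6076 10X Chromium, 288 of 7212 inDrops and 0 of 6170 Drop-seq cells (2, 16 and 0 of PM4). Of Drop-seq cells, 848 (60 of PM4) had a barcode equal to that of another cell of the library but for its last base, and its part in the results was not tested. No doublet caller was run. Of 7168 barcodes at 48 hr, those under 500 UMIs, under 200 genes or over 30% mitochondrial UMIs were dropped. A further 7 inDrops index libraries carried no label and were not used. Positions are from the Ensembl annotation of Release 6.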

Additional observations from a re-analysis of the deposited data

Results flagged for a closer look

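In PM4 of the 4 wounded libraries, 1 library stood far from the others in 7 of 37 genes looked at. The gap to the nearest library was the whole range (1.0) for *IM18* and *atilla*, *Vago*, *CG2233* and *lncRNA:CR44430*. Each of them had 0 UMIs in 3 libraries, where any UMI in the remaining library gives this value. The nominal chance of about 1 in 20 for such a gap does not hold for them. It cannot be relied on for *l(2)34Fd* and *CG8478* either, whose levels rest on few UMIs in the smaller libraries. *IM18* was found in wounded 3 alone (24.8 CPM), and the other 4 in wounded 2 alone, which has the most PM4 UMIs of the wounded libraries (5.89 CPM of *atilla*, at most 1.963 CPM of the others). The gap was 0.936 of the range for *l(2)34Fd* (35.5 CPM in wounded 1, at most 12.4 CPM elsewhere) and 0.833 for *CG8478* (17.7 CPM in wounded 2, at most 2.96 CPM elsewhere).

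*18SrRNA-Psi:CR45861* (-1.53) and *18SrRNA-Psi:CR41602* (-1.37) passed the interaction test of class and wounding, and both calls were lost with DESeq2, in thinned cells, without a filter and without wounded 4 or unwounded 3. *18SrRNA-Psi:CR45861* had 49.6 and 630 CPM in PM4 of wounded 3 and 4, against 510 CPM in PM4 of unwounded 3. The other plasmatocytes had 42.8 and 1231 CPM in wounded 3 and 4, against 344 CPM in unwounded 3. PM4 was thus above the other plasmatocytes in wounded 3 and below them in wounded 4, and the unwounded side is 1 library. It had 0 UMIs in PM4 and in the other plasmatocytes of the 10X Chromium and Drop-seq libraries used.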

How the results depend on the processing

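The fraction of PM4 cells in wounded against unwounded libraries passed the test in no alternative. Its log2 fold change was 1.31 with the replicate block, 0.72 in 10X Chromium only, and -1.57 to 1.45 when each library was left out, where it was above 0 without wounded 1 (0.087), wounded 3 (0.24), unwounded 2 (0.44) or unwounded 3 (1.45). Of genes changed with wounding in PM4, 6 in the main test, 11 passed with upper quartile scaling, 22 without a filter, 10 with at least 50 cells, 3 in thinned cells, 2 without genes listed in only 1 inDrops condition, 3 in wounded and unwounded libraries only, 20 in inDrops only (with 1 unwounded library), 4 with DESeq2, 19 with the replicate block, and 1 (without unwounded 3) to 22 (without unwounded 2) when each library was left out. The replicate block changed the call of *Mtk*, and that of *Drs* and *CG43175* in no way. Of wasp 24 hr against unwounded, 676 of 1843 genes passed in thinned cells and 642 to 1953 when each library was left out (642 without unwounded 3). Of the interaction, 0 genes passed with DESeq2, without a filter and in thinned cells (111, 299 and 147 at an unadjusted p under 0.05), 7 with upper quartile scaling, 6 with at least 50 cells, and 0 to 6 when each library was left out. Of genes higher in PM4 in each library, 37 were found in thinned cells and 74 to 98 when each library was left out (98 without wounded 1). Of those lower, 182 were found in thinned cells, 109 among genes of at least 20 CPM and 383 to 448 when each library was left out. Ratios of single genes turned for *kn* with clusters weighted equally (-0.56), and for *CG5728* (-0.32) in thinned cells. At 48 hr they turned for *trol* (0.063) and *Lip4* (-0.060) with at least 2 *IM18* UMIs, and in thinned cells for *l(2)34Fd* (-1.67), *dnk* (-1.20), *Drs* (-4.03), *spir* (0.85), *CG8478* (-1.31) and *mthl13* (-0.080). The cause was not tested.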
